A study of Mus musculus with 6 samples.

Results

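The genes described here are 10 of the 21878 genes in the deposited expression table, chosen by symbol for what they encode. They fall into 2 roles. H3f3a, H3f3b, H2afx, H2afz, H2afv, H2afy and H1f0 encode replacement histone variants, which stand outside the clusters of ordinary histone genes. Npat, Casp8ap2 and Slbp encode factors that make histone mRNA. They were set beside the 67 genes of the Hist clusters in the same table.

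All libraries came from HT22, an immortalized mouse hippocampal neuronal cell line, as 3 control replicates (control 1 to 3) and 3 replicates exposed to 120 µM aluminum maltolate for 24 h (Al 1 to 3), a chelate that keeps aluminum soluble. The treated samples carry the letter M in the labels, and the design text names only a control and an Al-treated group. The methods describe a control in medium alone and a maltol control, and which of them was sequenced is not given in the sources used here. Each library is the input of an m6A immunoprecipitation, that is, fragmented RNA sequenced without enrichment by the antibody, and the replicates are samples of a cultured line and not animals, so P values measure the spread between cultures. In such bulk RNA, fewer cells that make a transcript and less transcript per cell cannot be told apart.

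Histones package DNA. Most histone protein is made in S phase from replication-dependent genes, whose mRNAs end in a conserved stem-loop in place of a poly(A) tail. The stem-loop binding protein, encoded by Slbp, holds that structure through cleavage, translation and decay. NPAT, encoded by Npat, switches on transcription of the clusters in nuclear foci called histone locus bodies, and FLASH, encoded by Casp8ap2, brings the cleavage machinery there together with the U7 small nuclear RNP. Replacement variants are expressed through the cell cycle from genes that mostly make polyadenylated mRNA, and they enter chromatin outside replication.

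The tables hold FPKM, the fragments of a gene divided by its length and by the reads of the library, which allow levels of different genes to be compared per length. The 21878 genes took 37902258 to 44374068 reads in the control libraries and 21047144 to 26572497 in the Al libraries. The 50 most abundant genes held 18.7% ± 0.70 of the summed FPKM in control libraries and 31.5% ± 1.34 in Al libraries (SD, n = 3 each). To compare libraries, FPKM was divided by a size factor (the median ratio of a library's genes to their average), and log2(scaled FPKM + 0.1) was tested with limma over 12889 genes. The threshold for a call was a log2 fold change past 0.58 either way together with an unadjusted P under 0.05. Without the size factors the median of all genes moves by -0.46 (FPKM as deposited) or -0.75 (TPM, FPKM scaled to a common sum) on the log2 scale, and every direction below is given with that in mind. Unless scaled FPKM is named, levels are FPKM as deposited, whereas fold changes are those with size factors where no other scaling is named, so the levels alone give another ratio. Neuronal markers were almost absent from these cells: the sum of 10 was 7.66 to 9.48 FPKM in control and 3.89 to 7.50 in Al libraries, nearly all of it Tubb3 and Eno2, and Nefm and Snap25 were at 0 in all 6 libraries. Of the astrocyte markers, 1 of 3 tested was called lower, with a summed level of 14.0 to 23.3 FPKM in control and 1.56 to 2.70 in Al libraries, nearly all of it Slc1a3, and Aqp4 was at 0 in all 6. The 5 microglia markers summed to 39.4 to 49.0 and 22.2 to 72.6 FPKM, nearly all of it Tmem119, with 1 of 4 tested called higher, and the 5 oligodendrocyte markers stayed under 1 FPKM in sum. The part of these markers in the histone results was not tested.

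The stem-loop that separates the classes can be read from the transcripts. Sequences of GENCODE transcripts on GRCm38 were searched after the stop codon on the transcript strand for a pattern of 16 bases: GG, 2 free bases, CTTTT, 1 free base, AG, 2 free bases and CC. They occur in 44 of the 67 Hist genes (65.7%), in 61 of 22500 genes with a coding transcript (0.271%), and in 1 of the 10 genes, H2afx. The H2afx element and those of an H2A, an H3 and an H4 gene are shown with the 16 matched letters in capitals, because they show that a variant gene carries the element of the clustered genes:
H2afx: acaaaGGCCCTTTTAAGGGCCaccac
Hist1h2ab: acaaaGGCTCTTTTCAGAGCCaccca
Hist1h3b: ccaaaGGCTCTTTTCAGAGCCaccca
Hist1h4c: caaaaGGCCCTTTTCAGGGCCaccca
The capitals lie on GRCm38 at chr9:44335240-44335255 on the plus strand for H2afx, chr13:23751572-23751587 (plus) for Hist1h2ab, chr13:23752820-23752835 (plus) for Hist1h3b and chr13:23698089-23698104 (minus) for Hist1h4c, all in the 3′ untranslated region. In H2afx the element starts 47 bases after the stop codon, as in Hist1h2ab, and 822 bases of annotated transcript follow it, against 11 in Hist1h2ab and 454 in Hist1h4c. Of the 44 Hist genes with the element, 10 have more than H2afx after it. H2afx is known to give both an mRNA cut at the stem-loop and a longer polyadenylated one, and the table has 1 value for the gene, so the forms cannot be told apart.

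Promoters are shown for a pair of genes with negative fold changes under every scaling, H1f0 and H2afz, and for a gene that was called higher with size factors, Slbp. These are the 250 bases before the start used in the RefSeq promoter table on GRCm38.p6, 5′ to 3′ on the gene's strand, with CCAAT in capitals on either strand (ATTGG on the other one), the box bound by the factor NF-Y:
H1f0: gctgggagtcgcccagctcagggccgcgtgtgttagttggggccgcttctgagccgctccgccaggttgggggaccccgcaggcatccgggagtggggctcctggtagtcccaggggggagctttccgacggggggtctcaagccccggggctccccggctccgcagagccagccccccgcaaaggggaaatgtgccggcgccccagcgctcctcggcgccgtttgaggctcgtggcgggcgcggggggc
H2afz: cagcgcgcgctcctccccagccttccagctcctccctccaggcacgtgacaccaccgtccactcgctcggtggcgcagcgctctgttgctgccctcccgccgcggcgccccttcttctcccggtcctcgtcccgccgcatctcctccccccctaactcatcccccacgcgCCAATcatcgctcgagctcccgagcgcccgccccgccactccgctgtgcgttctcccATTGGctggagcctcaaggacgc
Slbp: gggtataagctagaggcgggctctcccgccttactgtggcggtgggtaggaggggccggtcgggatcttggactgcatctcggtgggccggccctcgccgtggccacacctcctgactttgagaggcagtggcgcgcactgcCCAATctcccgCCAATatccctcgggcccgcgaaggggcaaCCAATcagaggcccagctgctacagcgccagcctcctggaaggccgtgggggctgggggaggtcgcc
They lie at chr15:79027962-79028211 (plus), chr3:137864237-137864486 (plus) and chr5:33652575-33652824 (minus), outside the RefSeq span of each gene. The windows of 4 of the 9 genes with an entry reach into that span, by 250 bases for H3f3b, 158 for Npat, 76 for H2afy and 68 for H2afv (the table uses a start further inside the gene), and they are not printed. CCAAT occurs 2 times in the H2afz window, 3 times in that of Slbp, 2 times in that of Npat and 0 times in that of H1f0. For the rest of the genes with an entry it occurs 4 times each for H2afv and H3f3b, 2 times for Casp8ap2, once for H3f3a and 0 times for H2afy. Of all 32851 promoters, 33.8% hold it. TATAAA (12.4% of promoters, either strand) occurs only in the H3f3b window, and the E2F letters TTTGGCGC (0.417%) only in that of Casp8ap2, among these 9. The second E2F form searched, TTTCCCGC (0.895%), is in none of the 9. The same holds for TGACGTCA, the cyclic AMP response element (1.55%). Its shorter form TGACG (17.8%) is in the windows of H3f3b and Npat. The H1 box AAACACA (6.25%), known from linker histone genes, is in the window of H3f3a and not in that of H1f0.

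In control cells the 10 genes spanned a wide range of levels. H2afz was the highest at 517 ± 45.2 FPKM (SD, n = 3), followed by H2afx, H1f0, H3f3a and H3f3b at 362 ± 20.6, 316 ± 16.3, 255 ± 17.1 and 240 ± 7.91, at percentiles 99.0 to 99.6 of all genes in the table. The ranges of H3f3a (235 to 265) and H3f3b (231 to 247) overlap, so these neighbours were not separated, and those of the 3 genes above them are apart from each other. H2afv (44.4 ± 4.82) and Slbp (35.7 ± 1.29) came next, then H2afy, Casp8ap2 and Npat at 15.7 ± 0.545, 11.6 ± 0.462 and 8.09 ± 0.517. In Al cells H2afx was at the top with 486 ± 122, H1f0 fell from the third place to the fifth, and H2afy moved from the eighth to the last. The Al ranges of H3f3b, H2afz and H3f3a overlap each other, as do those of Npat, Casp8ap2 and H2afy in part, so their order is not settled.

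**Figure D1:**
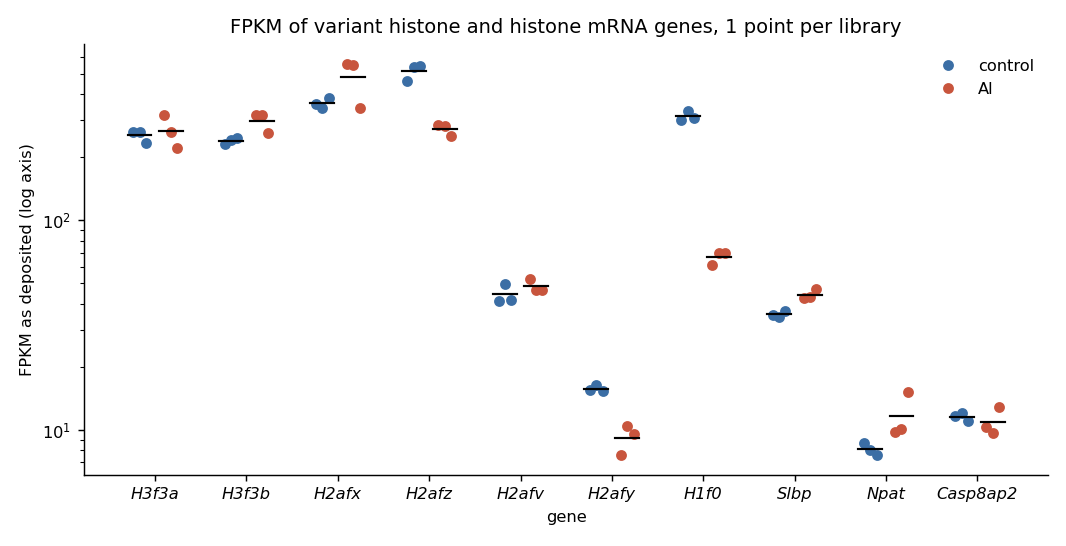
FPKM as deposited of the 10 genes on a log axis, with 1 point per library (blue, control; red, Al; n = 3 each) and a line at the mean of each group. H1f0, H2afz and H2afy have all Al points below all control points, whereas H2afx, H2afv, H3f3a and Casp8ap2 overlap.

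Of the 10 genes, 5 were called higher in Al cells (H2afx, H2afv, H3f3b, Slbp and Npat), against 26.2% of all genes tested, and 1 was called lower (H1f0), against 24.4%. H2afz, H2afy, H3f3a and Casp8ap2 were not called. The median log2 fold change was 0.58, beside 0.03 over all genes. The calls of the 5 genes rest on the size factors: 0 of the 10 were called higher and 3 lower (H1f0, H2afz, H2afy) in deposited FPKM or TPM, where 14.0% and 9.31% of all genes were higher and 42.0% and 53.1% lower, and quantile normalization, which gives every library the same distribution, called Npat higher and H1f0 and H2afz lower, with 22.2% of all genes higher and 24.2% lower. The median of the 10 was then 0.10, -0.20 and 0.06, beside -0.43, -0.72 and -0.03 for all genes. Measured against the median of all genes, the 5 called genes lay 0.55 to 0.93 above it with FPKM as deposited or TPM, and H1f0 was at -1.80 and -1.82. Taking off that median does nearly what the size factors do, so these values are no separate check on the calls. With quantile normalization the 5 genes ran from 0.03 (H2afx) to 1.1 (Npat) above it.

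**Figure D2:**
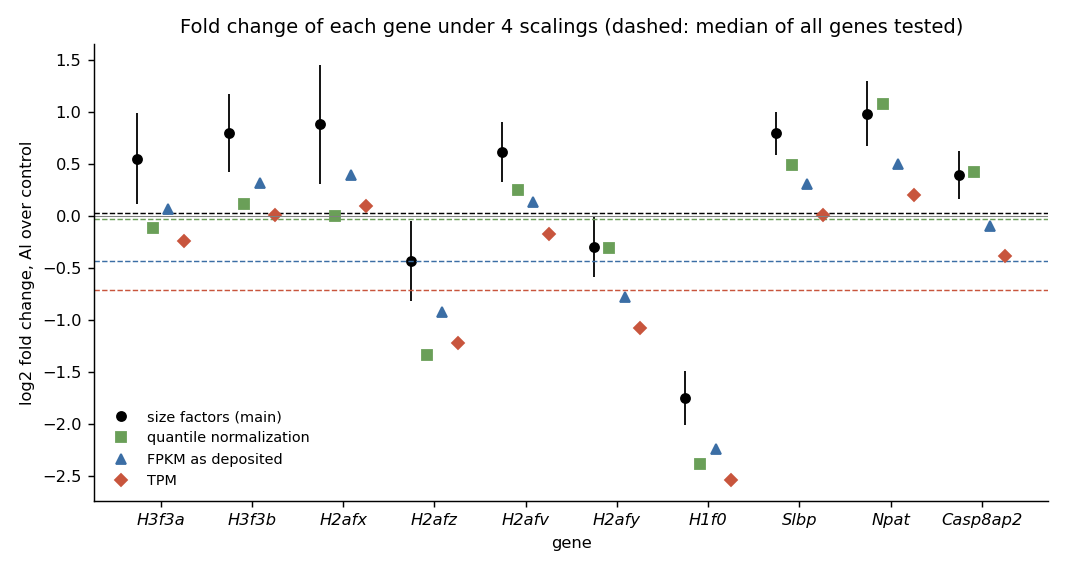
Log2 fold change of Al over control for each gene with size factors (black, with its 95% confidence interval), quantile normalization (green), FPKM as deposited (blue) and TPM (red). Dashed lines mark the median of all genes tested under each scaling. H1f0, H2afz and H2afy stay below 0 under all 4, and H2afx, H3f3b, Slbp and Npat stay at or above 0.

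H3.3, the replacement form of histone H3, is encoded by H3f3a and H3f3b as the same protein, and enters active genes through HIRA and silent repeats through DAXX and ATRX. H3f3b (chr11:116021961-116026039, minus strand, here and below RefSeq on GRCm38.p6) was at 231, 241 and 247 FPKM in control 1 to 3 and at 317, 317 and 262 in Al 1 to 3. All 3 Al libraries were above all control libraries. With size factors H3f3b rose by 0.80 (SE 0.16, limma adjusted P = 0.00278), and was not called in deposited FPKM (0.31), TPM (0.01) or quantile-normalized values (0.12).
H3f3a (chr1:180802560-180813605, minus) was at 265, 264 and 235 FPKM in control and at 319, 264 and 223 in Al libraries, so that Al 1 was above and Al 3 below every control library. Its log2 fold change was 0.55 with a 95% confidence interval of 0.11 to 0.99 (adjusted P = 0.033), under the fold threshold, and it turned to -0.24 with TPM and -0.12 with quantile normalization. Without Al 3 it was 0.76 and called higher. H3f3a has 40 pseudogenes that match its transcript over at least 200 bases at 90% identity or more and opposite-strand neighbours (Gm17275 and H3f3aos), H3f3b has 3 pseudogenes, and how the counting treated such reads is not given in the sources used here.
The log2 ratio of H3f3b to H3f3a within a library, which no size factor can move, was -0.09 ± 0.14 in control and 0.17 ± 0.15 in Al cells (SD, n = 3). The groups overlapped (exact two-sided permutation P = 0.2, adjusted 0.333 over the 5 pairs of genes compared), so a shift between the H3.3 genes was not separated from the spread.

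H2afx encodes H2A.X, the variant that is phosphorylated around DNA breaks. The gene (chr9:44334715-44336077, plus) was at 359, 342 and 383 FPKM in control and at 561, 551 and 345 in Al libraries. Al 1 and Al 2 were far above every control library, whereas Al 3 lay within the control range before scaling and above it after (370 against 283 to 326 scaled FPKM). H2afx rose by 0.88 (SE 0.25, adjusted P = 0.0139), by 1.19 without Al 3, and was not called with FPKM as deposited (0.39), TPM (0.09) or quantile normalization (0.00). Al 3 also had the size factor nearest to the controls among Al libraries, 0.932 against 0.802 and 0.815, and the 3 control libraries had 1.17 to 1.21. H2afx has 3 pseudogene copies and an opposite-strand neighbour, Gm44335.

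H2afz and H2afv encode the H2A.Z proteins, which sit beside transcription start sites and are placed there by the SRCAP and p400 complexes. H2afz (chr3:137864487-137866922, plus) was at 465, 541 and 545 FPKM in control and at 285, 281 and 252 in Al libraries. Every Al library was well below every control library. Its log2 fold change was -0.43 with size factors (95% confidence interval -0.81 to -0.05, adjusted P = 0.0499), not past the fold threshold, and it was called lower with FPKM as deposited (-0.92), TPM (-1.22) and quantile normalization (-1.33).
H2afv (chr11:6427226-6444511, minus) was at 41.4, 49.9 and 41.8 FPKM in control and at 52.5, 46.4 and 46.4 in Al libraries, and the groups overlap. With size factors H2afv rose by 0.62 (SE 0.13, adjusted P = 0.00269), close to the fold threshold: the call was lost without Al 1 (0.52), control 1 (0.56) or control 3 (0.57), and the direction turned with TPM (-0.17).
The proportion of the H2A.Z pair, on which size factors have no bearing, did not overlap between the groups. The log2 ratio of H2afz to H2afv was 3.49, 3.43 and 3.70 in control and 2.44, 2.60 and 2.44 in Al libraries, so that H2afz mRNA was 11.6 times that of H2afv in control and 5.62 times in Al cells. The Al values are all below the control values, by 1.05 on average (exact two-sided permutation P = 0.1, the smallest possible with 3 against 3, adjusted 0.25). The difference ran from -1.10 to -0.97 when each library was left out in turn, and H2afz has 4 pseudogene copies.

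H2afy encodes macroH2A1, a variant with a large extra domain found on silent chromatin. The gene (chr13:56073622-56135626, minus) was at 15.5, 16.4 and 15.4 FPKM in control and at 7.58, 10.4 and 9.61 in Al libraries, and no Al library reached the lowest control. Its log2 fold change of -0.30 missed both the fold threshold and the adjusted threshold (adjusted P = 0.0679), and it was called lower with FPKM as deposited (-0.78) and TPM (-1.08). An opposite-strand gene, Gm47071, overlaps it. The log2 ratio to its paralogue H2afy2, which encodes macroH2A2, was 1.37 ± 0.23 in control and 0.97 ± 0.54 in Al cells, with overlapping groups (exact permutation P = 0.3, adjusted 0.375). The difference of -0.41 was -0.12 without Al 1 and -0.66 without Al 2.

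H1f0 encodes H1.0, the linker histone of cells that have stopped dividing or differentiated, and had the largest change of the 10. The gene (chr15:79028212-79030504, plus) was at 303, 334 and 310 FPKM in control and at 61.1, 70.0 and 69.9 in Al libraries, from 26436 to 33252 reads and 3386 to 3734 reads. The groups are far apart and each is tight. H1f0 fell by 1.75 on the log2 scale (SE 0.11, adjusted P = 1.11e-05), to 0.298 of the control level, with a range of -1.80 to -1.70 when each library was left out, and it was called lower with FPKM as deposited (-2.24), TPM (-2.54) and quantile normalization (-2.38). The opposite-strand gene Gm49544 overlaps it. In the H1f0 promoter printed above, 0 of the 7 motifs searched occur on either strand.

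Slbp (chr5:33640055-33652574, minus), whose product binds the stem-loops printed above, was at 35.4, 34.6 and 37.1 FPKM in control and at 42.5, 43.2 and 46.9 in Al libraries. The groups do not overlap as deposited. Slbp rose by 0.79 (SE 0.09, adjusted P = 0.000115) with size factors, and was not called with FPKM as deposited (0.31), TPM (0.01) or quantile normalization (0.49). It has 1 pseudogene copy and the opposite-strand neighbour Gm10459.
Npat (chr9:53536889-53575627, plus) was at 8.65, 7.99 and 7.63 FPKM in control and at 9.80, 10.1 and 15.2 in Al libraries, all Al values being above the controls and Al 3 far above the others. Npat rose by 0.98 (SE 0.14, adjusted P = 0.00035), the highest value of the 10, and by 1.07 with quantile normalization, but was not called with FPKM as deposited (0.50) or TPM (0.20).
Casp8ap2 (chr4:32615470-32653271, plus) was at 11.7, 12 and 11.1 FPKM in control and at 10.3, 9.66 and 12.8 in Al libraries, with Al 3 above and Al 1 and Al 2 below the controls. Its log2 fold change of 0.39 (adjusted P = 0.00921) was under the fold threshold, and it turned to -0.09 with FPKM as deposited and -0.39 with TPM.
Casp8ap2 and Npat, both of the histone locus body, also had a proportion that did not overlap between the groups. The log2 ratio of Casp8ap2 to Npat was 0.43, 0.58 and 0.53 in control and 0.07, -0.06 and -0.25 in Al libraries, a ratio of 1.43 that became 0.948. The groups are apart, by 0.59 on average, at the smallest P the design allows (exact two-sided permutation P = 0.1, adjusted 0.25). The log2 ratio of Slbp to Npat was 2.13 ± 0.13 and 1.94 ± 0.28, which overlap (exact permutation P = 0.5, adjusted 0.5), and the difference of -0.19 was -0.03 without Al 3.

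**Figure D3:**
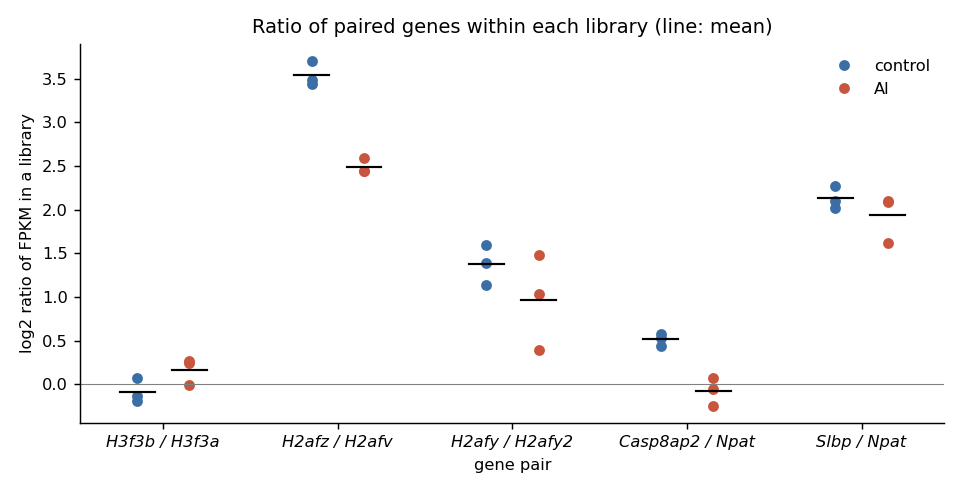
Log2 ratio of the FPKM of paired genes within each library (blue, control; red, Al; line, mean; n = 3 each). The groups are apart for H2afz to H2afv and for Casp8ap2 to Npat and overlap for the other 3 pairs.

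After scaling, all 10 genes had groups that do not overlap: 7 with Al above (35.1% of all genes tested) and 3 with Al below (33.1%). As deposited, 3 lay above (H3f3b, Slbp and Npat, against 20.1% of all genes) and 3 below (H1f0, H2afz and H2afy, against 50.1%). With TPM the same 3 lay below (59.6% of all genes) and 0 above (13.4%).

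The genes of the Hist clusters went another way. Of the 66 tested, 53 were called lower (80.3%, beside 24.4% of all genes) and 0 higher, with a median log2 fold change of -1.19. By unadjusted P and fold the count of lower genes was 63 in both the deposited FPKM and TPM, beside 42.0% and 53.1% of all genes, 60 with quantile normalization, beside 24.2%, and 42 without Al 3, and 0 were higher under the other 3 scalings. Hist1h1a, a linker histone gene, fell by 2.94 (48.9 ± 2.97 to 6.64 ± 2.79 scaled FPKM, adjusted P = 3.11e-05), Hist1h2bh fell by 2.78 (223 ± 12.3 to 32.5 ± 4.72 scaled FPKM, adjusted P = 4.03e-06) and Hist1h2ad fell by 2.61 (69.5 ± 19.4 to 11.6 ± 4.11 scaled FPKM, adjusted P = 9.59e-05). The 67 genes summed to 16958 to 17607 FPKM in control and 4854 to 8295 in Al libraries. H2afx, H2afv, H3f3a, H3f3b, Slbp and Npat each lay above all 66 Hist genes, whose values ran from -2.94 (Hist1h1a) to 0.52 (Hist2h3c1), whereas 52 of the 66 were higher than H1f0. The 6 genes also lay above all 66 with FPKM as deposited and TPM, whereas with quantile normalization 2 Hist genes lay above H2afx and 3 above H3f3a. The kit is made for polyadenylated mRNA, and whether poly(A) RNA was selected before these libraries is not given in the sources used here, so a change in the amount of a Hist mRNA and in its 3′ end cannot be told apart.
Lower calls were made with and without the stem-loop letters. Of the Hist genes with the 16 letters, 34 of 43 tested were called lower (median -1.07), and of those without, 19 of 23 (median -1.48), while H2afx, which carries the letters, was called higher with size factors. The search was for a fixed pattern in annotated transcripts, so a Hist gene without the letters is not shown to lack a stem-loop.

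**Figure D4:**
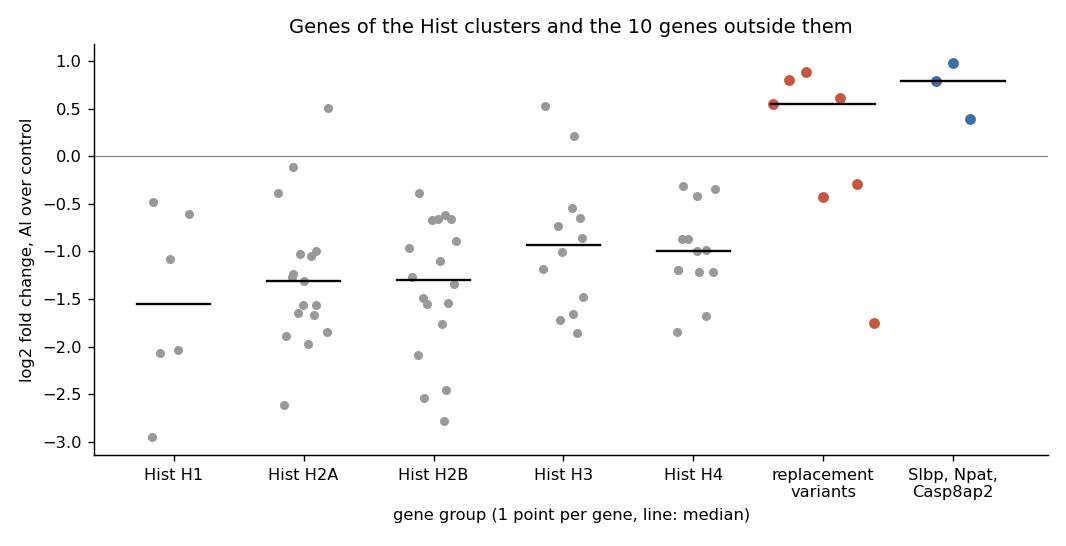
Log2 fold change of Al over control with size factors for the 66 tested genes of the Hist clusters by histone class (grey), the 7 replacement variants (red) and Slbp, Npat and Casp8ap2 (blue), with 1 point per gene and a line at the median. Of the Hist genes, 63 lie below 0, as do H2afz, H2afy and H1f0.

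H3f3a and H3f3b made up a larger part of the summed FPKM of their class in each Al library. So did the 4 H2A genes H2afz, H2afx, H2afv and H2afy. No size factor can move such a share. It does depend on how far Hist mRNAs, which end in a stem-loop in place of a poly(A) tail, were captured. Whether poly(A) RNA was selected is not given in the sources used here. H3f3a and H3f3b made up 14.0% ± 0.445 of the FPKM of 15 H3 genes (Cenpa not among them) in control and 33.6% ± 4.02 in Al libraries (SD, n = 3), with 29.2, 34.5 and 37.1% in Al 1 to 3. H3f3b went from 6.78% ± 0.208 to 17.8% ± 2.89 and H3f3a from 7.21% ± 0.529 to 15.8% ± 1.2, while the 12 Hist genes of that class went from 3041 ± 39.0 to 1155 ± 362 FPKM in sum and the H3.3 genes from 495 ± 12 to 567 ± 76.4.
Among 27 H2A genes the 4 genes, with H2afj counted on the other side, went from 32.2% ± 1.65 to 50.3% ± 2.44, of which H2afx made up 12.4% ± 0.548 in control and 29.6% ± 2.05 in Al libraries. H2afz had a share of 17.7% ± 1.52 in control, above that of H2afx, and of 17.1% ± 2.73 in Al libraries, below it. H2afv went from 1.52% ± 0.181 to 3.05% ± 0.58, and H2afy was at 0.540% ± 0.0247 and 0.588% ± 0.186. As deposited, the summed level of these 4 genes was 938 ± 53.2 FPKM in control and 816 ± 141 in Al libraries. The 18 Hist H2A genes went from 1907 ± 48.8 to 692 ± 174. The direction of the sum of the 4 depends on the scaling. In scaled FPKM H2afx rose from 304 ± 21.6 to 582 ± 184 and H2afv from 37.3 ± 3.51 to 57.4 ± 7.82. H2afz fell from 434 ± 37.6 to 324 ± 46.3 and H2afy from 13.2 ± 0.268 to 10.8 ± 1.72.
The linker class ran against this. H1f0 made up 11.7, 12.7 and 11.7% of the FPKM of 10 H1 genes in control and 5.94, 7.74 and 9.73% in Al libraries, 12% ± 0.57 against 7.80% ± 1.90, although the Hist H1 genes fell as well, from 2309 ± 19.3 to 817 ± 160 FPKM in sum.

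**Figure D5:**
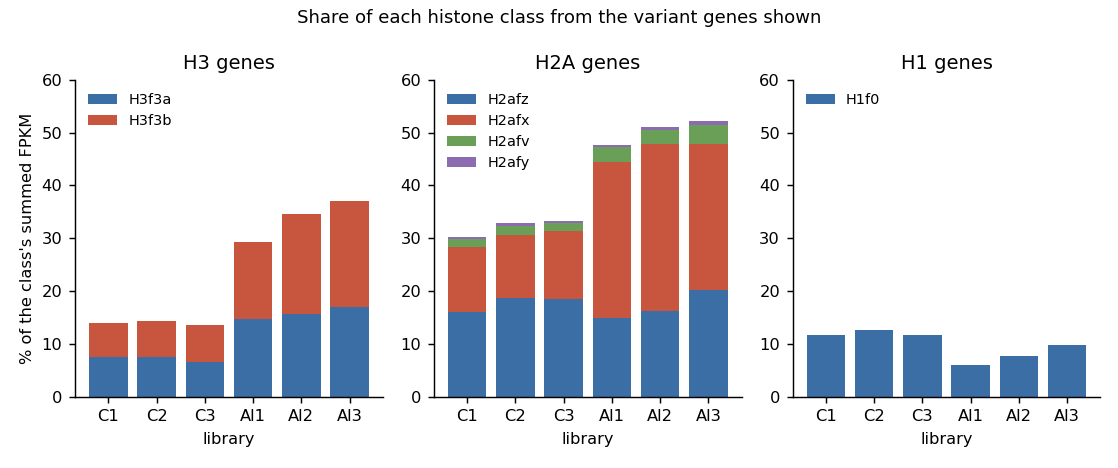
Share of the summed FPKM of all H3, H2A and H1 genes in the class that came from the variant genes named in each panel, in percent, with 1 stacked bar per library (C, control). The H3.3 genes reach 29.2 to 37.1% and the 4 H2A genes 47.6 to 52.3% in Al libraries, and H1f0 stays below its control share in all 3.

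Other histone variant genes were few. Of 10 listed, 4 were expressed enough to be tested. H2afj, an H2A variant that accumulates in senescent cells, was at 57.6, 62.1 and 65.3 FPKM in control and at 138, 132 and 83.0 in Al libraries, and rose by 1.38 (adjusted P = 0.000865) and under all 4 scalings. Cenpa, the H3 of centromeres, rose by 0.84 (adjusted P = 0.000227) with size factors, and was not called with FPKM as deposited (0.35), TPM (0.06) or quantile normalization (0.52). H3f3c, at 1.15 ± 0.377 and 0.476 ± 0.335 scaled FPKM, fell by 1.24 (adjusted P = 0.0344), on 23 to 45 reads per control library and 2 to 10 per Al library. It was called lower under all 4 scalings, but its scaled groups overlap, and the call was lost without Al 2 (-1.23), Al 3 (-0.81) or control 2 (-1.03) and with limma voom on recovered reads (unadjusted P = 0.0981). H2afy2 was not called (0.10, adjusted P = 0.66). H2afb2, H2afb3 and H1fnt were at 0 in all 6 libraries, and H2afb1, H1fx and H1foo were below the limit for testing.

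The factors that act with Slbp and FLASH on the 3′ end moved both ways. Of 22 genes for 3′ end processing and decay of histone mRNA, 8 were called higher (36.4%) and 3 lower (13.6%) with size factors, beside 26.2% and 24.4% of all genes. The counts were 4 and 6 with FPKM as deposited, beside 14.0% and 42.0% of all genes, and 1 and 9 with TPM, beside 9.31% and 53.1%. Quantile normalization gave 6 and 2, beside 22.2% and 24.2%. The genes with the largest rise encode Sm proteins, which the U7 particle shares with the spliceosome: Snrpb rose by 1.40 (adjusted P = 5.99e-05), Snrpd3 by 1.36 (adjusted P = 0.000499) and Snrpe by 1.18 (adjusted P = 0.000876), the last pair being short of the call with TPM (0.57 and 0.40).
The genes that fell include the pair that is particular to U7. Lsm10 was at 28.6, 30.4 and 27.2 FPKM in control and at 10.3, 7.90 and 9.69 in Al libraries, and Lsm11, the partner that FLASH binds, at 4.83, 4.78 and 4.72 and at 1.45, 1.52 and 2.82. In both genes every Al library was below every control library. Lsm10 fell by 1.14 (adjusted P = 8.09e-05) and was called lower under all 4 scalings, and Lsm11 fell by 0.86 (adjusted P = 0.00608) and was called under 3, with -0.52 under quantile normalization. Cstf2, encoding a cleavage stimulation factor, fell by 0.82 (adjusted P = 0.000199), under all 4.

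Of 9 genes for transcription at the histone loci, 2 were called higher (22.2%) and 0 lower with size factors, beside 26.2% and 24.4% of all genes, and 0 higher and 2 lower with FPKM as deposited, beside 14.0% and 42.0%. TPM gave 0 and 4, beside 9.31% and 53.1%, and quantile normalization 2 and 0, beside 22.2% and 24.2%. Hinfp, the activator of H4 genes, rose by 1.01 (adjusted P = 0.00018; 0.53 and not called as deposited), and Gon4l by 0.90 (adjusted P = 9.22e-05; 0.41 and not called as deposited). Among 30 histone chaperones and exchange factors, 7 were called higher (23.3%) and 1 lower (3.33%), beside 26.2% and 24.4% of all genes. The counts were 2 and 9 with FPKM as deposited (14.0% and 42.0% of all genes) and 0 and 15 with TPM (9.31% and 53.1%). With quantile normalization they were 4 and 5 (22.2% and 24.2%). Npm1 (1.14, adjusted P = 0.000407), Dnajc9 (1.12, adjusted P = 0.00181) and Spty2d1 (1.06, adjusted P = 6.31e-05) had the largest rises, none of them called with TPM. Npm1 was not called with quantile normalization either (0.41), nor Spty2d1 with FPKM as deposited (0.579, just under the threshold). Ubn2, a subunit of the HIRA complex that places H3.3, fell by 0.67 (adjusted P = 0.00244), and was not called with quantile normalization (-0.36). Of the other subunits, Ubn1 was called higher with size factors alone among the 4 scalings (0.60, adjusted P = 0.00117; -0.18 with TPM), Hira was called under none of them (0.29 with size factors), and Cabin1 was not called with size factors (-0.56) but lower under the other 3.
S phase genes, which mark the time at which Hist mRNAs are made, were mixed: of 24, 9 were called higher (37.5%) and 3 lower (12.5%), beside 26.2% and 24.4% of all genes. The counts were 4 and 6 in deposited FPKM (14.0% and 42.0% of all genes) and 4 and 11 in TPM (9.31% and 53.1%). With quantile normalization they were 5 and 5 (22.2% and 24.2%). Cdc6, a licensing factor, rose by 2.11 (12.2 ± 0.411 to 53.1 ± 3.70 scaled FPKM, adjusted P = 4.03e-06), Fen1, the flap nuclease, by 1.94 (adjusted P = 1.61e-05) and Rpa2, a subunit of the single-strand binding protein, by 1.53 (adjusted P = 8.86e-06). Tk1, thymidine kinase, fell by 1.36 (39.0 ± 4.34 to 15.1 ± 1.58 scaled FPKM, adjusted P = 3.41e-05), Prim1, a primase subunit, fell by 0.77 (adjusted P = 0.000799) and Mcm7, of the replicative helicase, fell by 0.66 (adjusted P = 0.00125). These 6 were called in the same direction under all 4 scalings.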

How the data were processed

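The authors deposited 1 FPKM value per gene symbol and library for 6 input libraries of HT22 cells. According to the methods, reads were trimmed with Trimmomatic, cleared of ribosomal RNA with SortMeRNA and aligned to GRCm38/mm10 with HISAT2, whereas the submitters' processing notes list fastp, HISAT2, HTSeq and GRCm39. The annotation and the use of strand are not given in the sources used here. Columns of counts were not used here, but for all 17688 genes above 0 whole reads were recovered from the FPKM steps (100% of values whole within 0.01 reads; tested on simulated data, where 99.06% of 3949 came back exactly). Coordinates come from GENCODE and RefSeq on GRCm38. Intervals cover the spread between these cultures.

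FPKM was divided by median-of-ratios size factors, and log2(value + 0.1) was tested with limma 3.58.1 in R 4.3.3 (lmFit, eBayes with trend) over 12889 genes with a mean of at least 0.1 FPKM. P values were adjusted by Benjamini-Hochberg over all genes. On simulated data of 12407 genes, 100% of 187 genes changed by 2 on the log2 scale and 1.26% of unchanged genes were called. Few genes changed there, evenly up and down, with a fixed spread and no shift in composition. These rates therefore do not carry over to smaller changes or to calls that depend on the scaling. Ratios within a library were tested by exact two-sided permutation. All 10 genes were named, as were the other variant genes and, from each list except the cell type markers, up to 3 genes called in each direction with the largest fold change and a mean of at least 1 FPKM. Marker genes, Hist2h3c1, Ubn1, Hira and Cabin1 were named after their values were seen. The genes and lists were chosen with earlier results of these data known. Alternatives were other scalings, pseudocounts and filters, a fit lacking the trend, blocking on the replicate number, leaving out single libraries and, added after seeing the data, limma voom on the recovered reads.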

Additional observations from a re-analysis of the deposited data

How the results depend on the processing

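The number of the 10 genes called higher went from 5 to 0 in deposited FPKM, to 0 in TPM and to 1 after quantile normalization, and the number called lower from 1 to 3, 3 and 2. The median over the 10, 0.58 on the log2 scale, became 0.095 in deposited FPKM, -0.20 in TPM (reversed) and 0.059 after quantile normalization, and ran from 0.46 (without Al 1) to 0.74 (without Al 3) when each library was left out. Single genes that reversed were H2afv with TPM (-0.17), H3f3a with TPM (-0.24) and quantile normalization (-0.12), and Casp8ap2 in deposited FPKM (-0.092) and TPM (-0.39). Of 170 gene and setting combinations, 143 kept direction and call, 16 kept direction and lost the call, 6 gained it and 5 reversed. Most of these settings kept a median-of-ratios scaling, so the tally says little about the choice of scaling. Apart from H2afv without Al 1, control 1 or control 3 and H3f3a without Al 3, every change came with deposited FPKM, TPM or quantile normalization. The genes called higher ran from 4 to 6 when each library was left out, and the count of lower Hist genes from 42 to 63 over all settings, the lowest without Al 3. The ratios and shares kept their direction, but that of H2afy to H2afy2 ran from -0.66 to -0.12 with single libraries left out. Which scaling is closest to amounts per cell was not tested.

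A replicate block gave 5 genes called higher and 1 lower, as without it, 6475 calls over all genes against 6518 and 51 lower Hist genes, and H2afz then had an unadjusted P of 0.106. Deviations of same-numbered libraries from their group means correlated at -0.11 to -0.06, and no library correlated best with its own number. With so few libraries per group, this cannot show whether same-numbered cultures were handled together.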
